A study of Mus musculus with 4 samples.

Results

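Accessible chromatin at 10 chondrogenic genes was measured in mesenchymal stem cells (MSCs) of old and young mice. The genes were the transcription factors Sox9, Sox5 and Sox6, the cartilage matrix genes Acan, Comp, Matn3, Hapln1 and Prg4, and the signalling genes Pthlh and Pth1r. They were chosen by name for their roles in cartilage and not by a rule on their values, although earlier results of these data were known. A peak was assigned to a gene when it overlapped the gene or the 20 kb upstream of its start in the GENCODE vM21 annotation of GRCm38, the assembly that mm10 names. By this rule, 114 of the 117282 peaks in the table belonged to the 10 genes, and 0 peaks lay in the windows of a pair of them.

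Chondrogenesis begins when mesenchymal progenitors condense and switch on SOX9, the master transcription factor of the cartilage lineage. SOX9 acts together with SOX5 and SOX6, which lack a transactivation domain of their own and help SOX9 to activate cartilage matrix genes. Chondrocytes then secrete a matrix of aggrecan (Acan), hyaluronan link protein (Hapln1), cartilage oligomeric matrix protein (Comp) and matrilin 3 (Matn3), while lubricin (Prg4) coats the joint surface. Parathyroid hormone-related protein (Pthlh) acts through its receptor (Pth1r) to delay the maturation of growth plate chondrocytes. Bone marrow and endosteal MSCs are known for their capacity to form bone, fat and cartilage cells.

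The series compared MSCs of 2 old samples (between 18 and 22 months of age) with MSCs of 2 young samples (between 3 and 5 months), all cultured at 2% O2, by ATAC-seq, in which a transposase tags open DNA. The series was designed to describe changes of these stem cells with age, chromatin among them. The labels name no genetic change or treatment, other than age, that set the groups apart. For the cells of its oxygen experiments, the study isolated MSCs from crushed hind limb bones of wild-type male C57BL/6N mice and sorted them as CD45-/TER-119-/CD140a+/Sca-1+ cells after outgrowth in culture. The labels of the old and young samples name only the cell type, the age and the culture, and do not say whether samples of a group came from separate animals or cultures, so that p-values measure the spread between these samples, which may be technical.

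The 7 peaks whose sequences are shown here were the 6 peaks of the chondrogenic genes with the smallest unadjusted p between old and young MSCs, and the upstream peak of Hapln1, which had the highest value per kb among the 114. Each line holds the central 300 bases of the peak on the plus strand of GRCm38, which is the antisense strand of Sox5 and Sox6. They are, in order, chr7:115890001-115890300, chr7:115686451-115686750 and chr7:115485951-115486250 in Sox6, chr6:144710801-144711100 and chr6:144298151-144298450 in Sox5, chr12:8946451-8946750 upstream of Matn3 and chr13:89521301-89521600 upstream of Hapln1. None of these windows overlapped an annotated exon. Capitals mark matches, on either strand, to a SOX motif (ACAATG), a RUNX motif (TGTGGT), an AP-1 motif (TGANTCA) or a TEAD motif (GGAATG).
Sox6 peak at 149 kb: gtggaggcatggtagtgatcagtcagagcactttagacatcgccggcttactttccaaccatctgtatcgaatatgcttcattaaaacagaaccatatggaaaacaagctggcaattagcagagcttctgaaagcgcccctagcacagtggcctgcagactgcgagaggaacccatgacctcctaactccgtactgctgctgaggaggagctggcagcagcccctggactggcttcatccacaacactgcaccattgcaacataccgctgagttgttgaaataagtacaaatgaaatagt
Sox6 peak at 352 kb: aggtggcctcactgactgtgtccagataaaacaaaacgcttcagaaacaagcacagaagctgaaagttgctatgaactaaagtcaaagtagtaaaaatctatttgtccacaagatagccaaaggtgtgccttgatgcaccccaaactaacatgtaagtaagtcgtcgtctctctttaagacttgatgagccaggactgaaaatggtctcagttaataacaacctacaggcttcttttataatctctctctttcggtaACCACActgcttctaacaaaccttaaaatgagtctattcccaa
Sox6 peak at 553 kb: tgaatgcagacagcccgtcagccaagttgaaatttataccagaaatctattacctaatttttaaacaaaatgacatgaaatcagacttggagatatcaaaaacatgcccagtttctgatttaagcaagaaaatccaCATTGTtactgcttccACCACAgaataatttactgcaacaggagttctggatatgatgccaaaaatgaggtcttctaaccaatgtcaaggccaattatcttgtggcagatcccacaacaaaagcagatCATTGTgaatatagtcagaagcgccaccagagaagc
Sox5 peak at 71.0 kb: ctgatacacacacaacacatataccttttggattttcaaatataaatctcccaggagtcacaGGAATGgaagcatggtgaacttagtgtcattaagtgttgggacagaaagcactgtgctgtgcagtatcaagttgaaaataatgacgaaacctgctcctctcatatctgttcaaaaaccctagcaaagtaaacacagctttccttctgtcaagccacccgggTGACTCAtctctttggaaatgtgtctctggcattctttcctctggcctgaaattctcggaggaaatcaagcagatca
Sox5 peak at 484 kb: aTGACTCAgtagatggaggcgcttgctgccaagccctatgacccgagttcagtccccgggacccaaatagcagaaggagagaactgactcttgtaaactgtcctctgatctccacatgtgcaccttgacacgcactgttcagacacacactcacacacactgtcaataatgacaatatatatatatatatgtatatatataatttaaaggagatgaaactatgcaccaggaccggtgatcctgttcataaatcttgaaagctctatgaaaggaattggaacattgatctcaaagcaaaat
Matn3 upstream peak: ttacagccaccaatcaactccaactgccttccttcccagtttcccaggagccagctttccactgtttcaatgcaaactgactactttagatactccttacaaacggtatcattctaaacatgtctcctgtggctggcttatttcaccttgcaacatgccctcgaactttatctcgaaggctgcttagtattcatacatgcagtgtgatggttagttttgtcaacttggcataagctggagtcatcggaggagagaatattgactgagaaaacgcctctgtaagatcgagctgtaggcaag
Hapln1 upstream peak: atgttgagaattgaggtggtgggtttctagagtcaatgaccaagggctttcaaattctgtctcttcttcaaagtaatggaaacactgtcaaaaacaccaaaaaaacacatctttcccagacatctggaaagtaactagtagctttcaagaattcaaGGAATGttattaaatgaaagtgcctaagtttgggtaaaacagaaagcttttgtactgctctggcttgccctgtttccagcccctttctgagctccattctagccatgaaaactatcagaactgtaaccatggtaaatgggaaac
The window of the Sox6 peak at 553 kb held 2 SOX matches and 1 RUNX match, and that of the Sox6 peak at 352 kb held 1 RUNX match. The Sox5 windows each held 1 AP-1 match, with 1 TEAD match in addition in the peak at 71.0 kb. The Hapln1 window held 1 TEAD match. The Sox6 peak at 149 kb and the Matn3 upstream peak held 0 matches to the 4 motifs, which says only that these letters were not in the windows.

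The deposited values fell on even steps and were read as counts scaled to a library total of 10000000 and not divided by the width of the peak. The labels do not give the depth. With the smallest step of a sample taken as 1 count, the library totals lay between 28259470 and 32559794 counts, and counts given below rest on the same reading. The median peak value lay between 13.3 and 18.0. Values are given here after division by RLE factors, median-ratio scaling factors that ranged from 0.817 in old replicate 1 to 1.15 in young replicate 2. Old replicate 2 stood apart in the share of its signal on the mitochondrial chromosome, which was 6.52% against 13.5% to 15.7% in the other samples. Among markers of MSCs, 10 of 10 genes had a promoter peak, with summed promoter values per kb of 164 and 187 in old and 163 and 156 in young MSCs. Both old samples lay above both young samples at Pdgfra, Pdgfrb and Nt5e and below them at Cd44 (19.1 and 19.7 against 20.3 and 20.1). The groups overlapped at Ly6a, Thy1, Eng, Cxcl12, Lepr and Prrx1. Summed over all peaks of a gene, 9 of the 10 were higher in old MSCs (90.0%, against 47.4% of all genes), with a median log2 difference of 0.18. This count is after RLE scaling and was not made in the values as deposited, where the median difference of all peaks was -0.27. In the promoter sums old replicate 1 (164) was close to young replicate 1 (163), and old replicate 2 stood apart. Endothelial markers had a promoter peak at 3 of 4 genes (not Cdh5), with sums of 49.5 and 52.3 in old and 59.6 and 59.3 in young MSCs. The endothelial list did not move together: Tek had 16.9 and 17.4 in old and 31.1 and 26.8 in young MSCs, while Kdr had 20.5 and 19.2 in old and 15.8 and 16.3 in young MSCs and the groups overlapped at Pecam1. Osteoblast markers had one at 4 of 4 genes, with sums of 54.6 and 55.0 against 59.8 and 57.1, where Dmp1 had 19.0 and 19.7 in old and 25.7 and 28.5 in young MSCs and the groups overlapped at Sp7, Bglap and Ibsp. Mature chondrocyte markers, a list that includes Acan, had one at 3 of 5 genes (not Matn1 or Snorc), with sums of 64.1 and 61.8 against 61.0 and 58.8. Of these, only Acan had both old samples above both young samples (8.40 and 9.21 against 6.72 and 7.65), and the groups overlapped at Col2a1 and Col10a1. The part of these differences in the results on chondrogenic genes was not tested, and in these bulk samples a smaller share of cells with an open site cannot be told apart from less opening in each cell.

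All 10 chondrogenic genes had at least 1 peak within 1 kb of the start of one of their own protein-coding transcripts. Of the 114 peaks, 74 were intronic, 15 lay at such a promoter and 4, some of them among these 15, lay at the promoter of another gene. Sox5 and Sox6, which span 954 kb and 568 kb, held 44 and 32 of them. Sox9, a gene of 5.54 kb, had 3 peaks, Acan had 3, Comp had 5, Matn3 had 7, Hapln1 had 6, Prg4 had 6, Pthlh had 1 and Pth1r had 7. The peaks of the SOX genes were narrow, with a median width of 1000 bases, and those of Comp were wide, with a median of 7000 bases, so that levels of different genes are compared only per kb of peak.

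**Figure D1:**
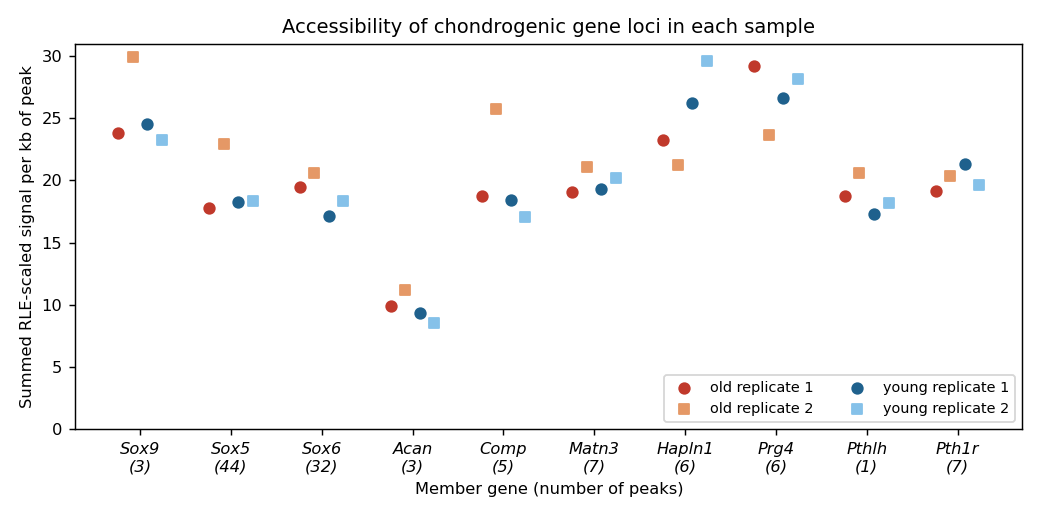
Accessibility of the 10 chondrogenic gene loci: the y axis gives the RLE-scaled values summed over the peaks of a gene per kb of peak, the x axis the gene with its number of peaks, and each point is 1 sample. Acan lies below the other 9 genes in every sample, between 8.56 and 11.2, and old replicate 2 stands well above the other 3 samples at Sox9, Sox5 and Comp.

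Summed over the peaks of a gene and expressed per kb of peak, the level of Acan was 9.74 ± 1.10 (mean ± SD over all 4 samples, n = 4), and none of its samples reached the lowest sample of another gene. Pthlh (18.7 ± 1.39), Sox6 (18.9 ± 1.47), Sox5 (19.3 ± 2.41), Matn3 (19.9 ± 0.923), Comp (19.98 ± 3.91) and Pth1r (20.1 ± 0.963) followed, and each differed from its neighbour in this order by less than its SD. Hapln1 (25.04 ± 3.65), Sox9 (25.4 ± 3.06) and Prg4 (26.9 ± 2.42) were higher on average, and these 3 did not differ beyond their SDs. The samples of Hapln1 overlapped those of Pth1r, its neighbour in this order.

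No peak of a chondrogenic gene differed between old and young MSCs at an adjusted p under 0.01 in the limma test over all peaks, in either direction. Over all peaks, 36 were lower in old MSCs at this threshold (0.0307%) and 30 were higher (0.0256%). The smallest adjusted p among the 114 peaks was 0.0676, and 0 passed a threshold of 0.05. The limma-voom test on recovered counts also made 0 calls among them. At an unadjusted p under 0.05, 5 of the 114 peaks were lower in old MSCs (4.39%, against 8.87% of all peaks) and 13 were higher (11.4%, against 7.49%). The count at the stricter threshold changed without old replicate 1, but that fit holds 1 old sample and takes its residual spread from the young pair alone. Its calls include no spread between old samples and are not comparable with those from all 4 samples.

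The differences of the chondrogenic peaks were centred a little above those of all peaks. Their median log2 difference, old minus young, was 0.13 against 0.00 for all peaks, their quartiles were -0.10 and 0.33, and 75 of 114 were higher in old MSCs (65.8%, against 50.1% of all peaks). Both old samples lay above both young samples at 35 of the 114 peaks (30.7%, against 23.2% of all peaks) and below them at 15 (13.2%, against 24.2%). Of the 74 intronic peaks, 17 lay above in this way (23.0%, against 25.5% of all intronic peaks) and 10 below (13.5%, against 22.6%). The offset of the median came mostly from 1 sample: the median of the 114 peaks was 0.05 and 0.01 in old replicate 1 against the young replicates, and 0.22 and 0.22 in old replicate 2, while the medians of all peaks in these pairs lay between -0.01 and 0.00. Without old replicate 2 the median of the 114 peaks was 0.03, and without old replicate 1 it was 0.25. The sign also rested on the scaling: in the values as deposited, the median of all peaks was -0.27 and that of the chondrogenic peaks was -0.15, which is 0.12 above it, and both old samples lay above both young samples at 8 of the 114 peaks (7.02%, against 7.56% of all peaks) and below them at 33 (28.9%, against 43.5%). These are descriptions of the list, and the medians were 0.15 for the 79 peaks of the SOX genes, 0.02 for the 27 peaks of the matrix genes and 0.13 for the 8 peaks of Pthlh and Pth1r.

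**Figure D2:**
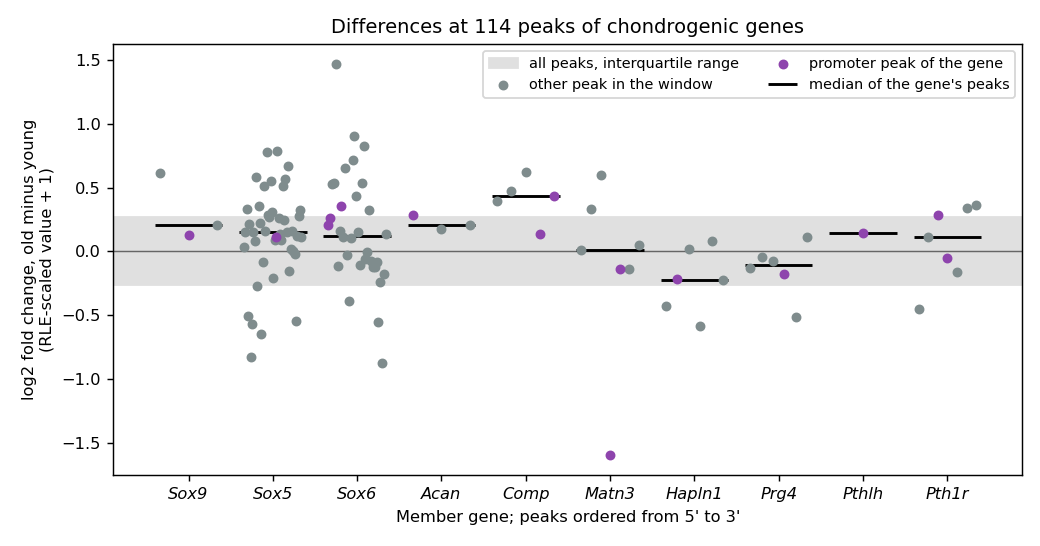
Log2 difference of each of the 114 peaks, old minus young MSCs after RLE scaling (y axis), by gene (x axis), with the median of each gene as a black line and the interquartile range of all peaks in grey. The points run from -1.59 at Matn3 to 1.47 at Sox6, and in the values as deposited all peaks are shifted down by a median of 0.27.

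Summed over its peaks, none of the 10 genes passed an adjusted p of 0.01 in the limma test over 18118 protein-coding genes with a peak, a test that made 0 calls (0.0%) in all. At an unadjusted p under 0.05, 1 of the 10 was lower in old MSCs, Hapln1 (background 4.74% of genes), and 0 were higher (background 3.06%). Without old replicate 1, Sox5, Comp and Hapln1 passed the threshold of 0.01, Sox5 and Comp as higher and Hapln1 as lower in the remaining old sample, in a fit with 1 old sample that called 25.1% of all genes. A single gene or peak compared by the two-sided exact permutation test could not go below p = 0.33 with 2 against 2 samples.

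Sox9, the master factor of the lineage (chr11:112782224-112787760), had summed values of 174 and 218 in old replicates 1 and 2 and of 179 and 169 in young replicates 1 and 2. Only old replicate 2 stood apart, and old replicate 1 lay between the young samples. The log2 difference was 0.16 ± 0.16 (SE), with an adjusted p of 0.799 in limma, and it was -0.13 in the values as deposited. Its promoter peak (chr11:112779401-112784400), which covers the 5′ end of the gene, held most of this signal, with values of 149 and 190 in old and 159 and 149 in young MSCs. Over all peaks of chromosome 11 the median shift of old replicate 2 against the young samples was 0.17 on the log2 scale, while those of its other autosomes lay between -0.10 and 0.07, and the part of this shift in the value at Sox9 was not tested. Without old replicate 2 the log2 difference of Sox9 was 0.01. Of the other 2 peaks, the one 11.9 kb upstream had values of 8.99 and 12.4 in old and 5.61 and 7.68 in young MSCs, so that the groups did not overlap (log2 difference 0.61 ± 0.33, adjusted p = 0.374 in limma).

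Sox5, the SOXD factor with the longest gene of the 10 (chr6:143828425-144781977), had summed values of 1050 and 1355 in old and of 1080 and 1085 in young MSCs. The young samples were almost equal, and the old samples lay on both sides of them. The log2 difference was 0.14 ± 0.13 (adjusted p = 0.784 in limma), and it was -0.03 without old replicate 2 and -0.15 in the values as deposited. Over the 44 peaks, 34 were higher and 10 lower in old MSCs, but the median of the peaks was -0.05 and -0.06 in old replicate 1 against the young samples and 0.29 and 0.40 in old replicate 2. The promoter peak of the gene (chr6:144207601-144212100) lies 572 kb from the annotated 5′ end, where a shorter protein-coding transcript starts. Its values were 47.1 and 69.8 in old and 55.8 and 50.5 in young MSCs, with the old samples on both sides of the young ones. The peak with the highest value per kb in the gene (chr6:143915501-143919100, an intron) had 146 and 213 in old and 171 and 186 in young MSCs.

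The peaks with a small p in Sox5 were intronic and went in opposite directions. The peak at 71.0 kb, whose window held an AP-1 and a TEAD match, had values of 10.7 and 15.2 in old and of 22.1 and 24.8 in young MSCs (log2 difference -0.83 ± 0.27, adjusted p = 0.133 in limma). The peak at 484 kb, with 1 AP-1 match, had values of 96.3 and 129 in old and of 80.5 and 71.5 in young MSCs (0.55 ± 0.19, adjusted p = 0.147). In both, the groups did not overlap.

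Sox6, the partner of Sox5 (chr7:115470872-116038796), had summed values of 924 and 976 in old and of 814 and 871 in young MSCs. Both old samples lay above both young samples, and the log2 difference was 0.17 ± 0.10, with an adjusted p of 0.682 in limma. It stayed between 0.12 and 0.22 when any 1 sample was left out, and it was -0.12 in the values as deposited. The gene had 3 promoter peaks. The one over the annotated 5′ end (chr7:116038101-116040800), which also covers the start of 1110004F10Rik, had values of 41.5 and 49.1 in old and of 42.2 and 36.02 in young MSCs. The one 6.15 kb inside the gene had 158 and 183 in old and 154 and 130 in young MSCs. The one 214 kb inside the gene (chr7:115823801-115826700) had 118 and 133 in old and 91.1 and 105 in young MSCs, with a log2 difference of 0.36 ± 0.17 and an adjusted p of 0.301 in limma. In the latter pair of promoters both old samples lay above both young samples.

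Of the 6 peaks with the smallest p, 3 lay in Sox6. The intronic peak at 149 kb had values of 6.85 and 13.0 in old and of 2.64 and 2.95 in young MSCs (log2 difference 1.47 ± 0.39, adjusted p = 0.0676 in limma). It was a weak site, with 16 and 43 counts in old and 8 and 10 counts in young MSCs. The intronic peak at 352 kb had 18.4 and 17.6 in old and 8.58 and 9.74 in young MSCs (0.90 ± 0.28, adjusted p = 0.115). The peak at 553 kb, close to the 3′ end of the gene and with 2 SOX matches, had 15.8 and 9.40 in old and 22.8 and 23.6 in young MSCs (-0.87 ± 0.29, adjusted p = 0.132). The groups did not overlap at these 3 peaks, higher in old MSCs at the first pair and lower at the last.

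**Figure D3:**
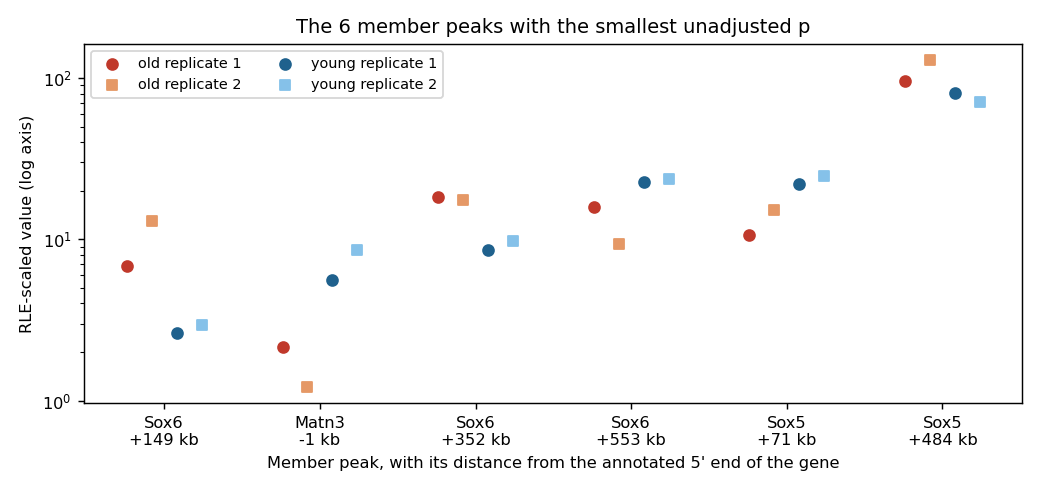
RLE-scaled values of the 6 chondrogenic peaks with the smallest unadjusted p (log y axis), each point 1 sample, with the distance of the peak from the annotated 5′ end of its gene on the x axis. Old and young samples do not overlap at these peaks, which were chosen for their small p, and the smallest adjusted p among them is 0.0676.

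Along Sox6 the differences were unevenly placed, a pattern singled out after the values were seen. The 10 peaks between the 5′ end and the middle of the gene had a median log2 difference of 0.31, and 1 of them was below 0. The 22 peaks beyond the middle had a median of -0.04, and 13 of them were below 0. Spearman's rho between the distance from the 5′ end and the log2 difference was -0.54 across the 32 peaks, which share the 4 libraries. It was -0.25 and -0.43 in old replicate 1 and -0.46 and -0.52 in old replicate 2, each against young replicates 1 and 2. In old replicate 1 against young replicate 1 the medians on the 2 sides of the middle were nearly equal, 0.24 before it and 0.24 beyond it, with 3 of 10 and 8 of 22 peaks below 0. In Sox5 rho was 0.09 across 44 peaks.

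**Figure D4:**
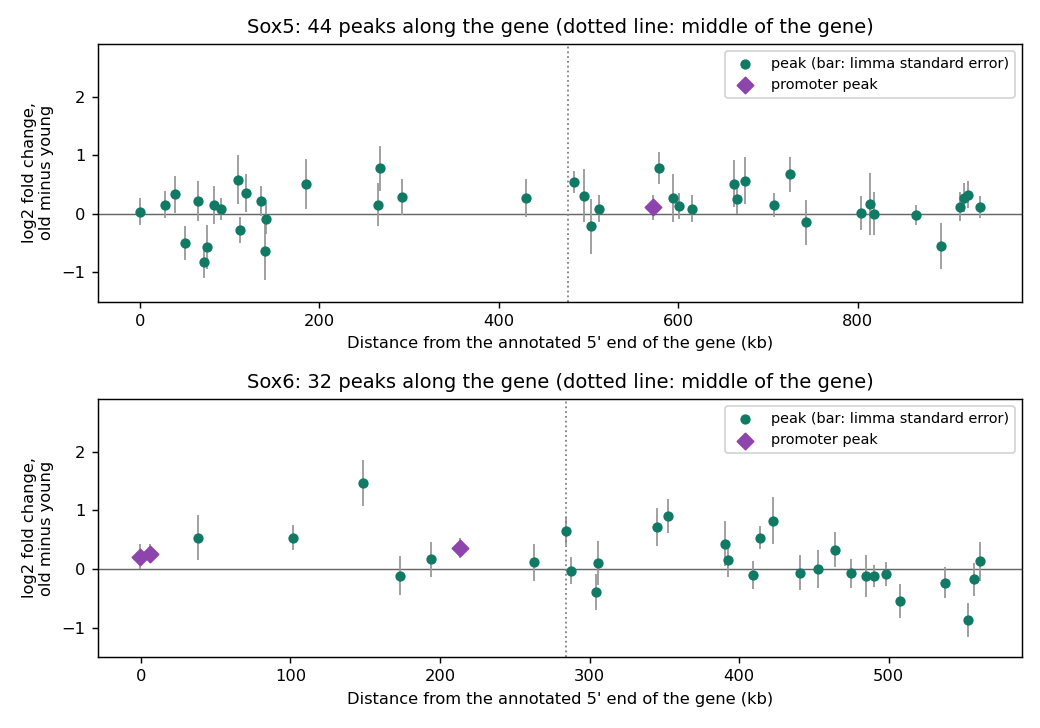
Log2 difference, old minus young MSCs after RLE scaling (y axis), of the 44 peaks of Sox5 and the 32 peaks of Sox6 against the distance from the annotated 5′ end of the gene in kb (x axis), with limma standard errors as bars and promoter peaks as diamonds. In Sox6, 13 of the 22 peaks beyond the middle of the gene lie below 0 and 1 of the 10 before it.

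Acan, which encodes the large proteoglycan of cartilage (chr7:79053483-79115099), had summed values of 49.7 and 55.8 in old and of 46.5 and 42.8 in young MSCs. Both old samples lay above both young samples, by a log2 difference of 0.23 ± 0.19 with an adjusted p of 0.743 in limma, and in the values as deposited the difference was -0.05. The promoter peak (chr7:79052301-79055000) was weak, at 7.999 per kb, a level below which 4.10% of all promoter peaks lay, with values of 22.7 and 24.9 in old and 18.2 and 20.7 in young MSCs. The intronic peak 27.6 kb inside the gene was higher per kb (15.6) and had values of 15.4 and 20.9 in old and 18.8 and 13.3 in young MSCs, with no order between the groups.

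Comp, which encodes a pentameric glycoprotein that binds collagen fibrils (chr8:70373558-70382066), had the largest positive difference of the 10 genes, with summed values of 593 and 816 in old and of 585 and 539 in young MSCs. Old replicate 1 was close to young replicate 1, and old replicate 2 stood apart. The log2 difference was 0.31 ± 0.15, with an adjusted p of 0.650 in limma, and leaving out 1 sample gave values from 0.09 (without old replicate 2) to 0.53 (without old replicate 1). Comp had 2 promoter peaks. The one over the annotated start (chr8:70369801-70376800) was strong, at 41.3 per kb, and had values of 248 and 363 in old and of 282 and 263 in young MSCs, with old replicate 1 below both young samples. The other 4 peaks of Comp were higher in both old samples than in both young samples. Among them, a peak 10.9 kb upstream had 47.9 and 66.1 in old and 33.3 and 39.3 in young MSCs (0.62 ± 0.22, adjusted p = 0.163 in limma). The other promoter peak (chr8:70379001-70392000), which covers a transcript start in the 3′ part of the gene and runs past its end, had 178 and 249 in old and 171 and 141 in young MSCs (0.43 ± 0.17, adjusted p = 0.213 in limma), so that there the groups did not overlap. A further peak lies at the promoter of Upf1. The peaks of Comp span 31.7 kb, while they cover 54.8% of its window of 28.5 kb, and the whole value of each peak entered the sum. The sum of Comp is therefore not the signal of Comp alone.

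Matn3, which encodes a matrilin that links collagen and proteoglycans (chr12:8947929-8972028), had summed values of 200 and 221 in old and of 203 and 212 in young MSCs, with the old samples on both sides of the young ones (log2 difference 0.02 ± 0.14, adjusted p = 0.973 in limma). The peak over its start (chr12:8947001-8948600) had 51.4 and 47.0 in old and 56.8 and 51.4 in young MSCs. Directly upstream of it, the peak whose sequence is shown above (chr12:8946201-8947000) had values of 2.14 and 1.21 in old and of 5.61 and 8.56 in young MSCs. This was the most negative log2 difference of the 114 peaks, -1.59 ± 0.42, with an adjusted p of 0.0680 in limma. It rests on 5 and 4 counts in old and 17 and 29 counts in young MSCs, and 0.259% of all promoter peaks lay below its level per kb. The strongest peak of the gene per kb (58.1) lay 22.0 kb inside it and had 86.9 and 103 in old and 86.5 and 95.7 in young MSCs.

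Hapln1, which encodes the protein that fixes aggrecan to hyaluronan (chr13:89539796-89611652), was the gene with the most negative difference. Its summed values were 199 and 182 in old and 225 and 254 in young MSCs, so that both old samples lay below both young samples. The log2 difference was -0.33 ± 0.14 with an unadjusted p of 0.0463 and an adjusted p of 0.636 in limma, and it lay between -0.42 and -0.24 when any 1 sample was left out. Most of it came from the strong peak 18.3 kb upstream (chr13:89520401-89522500), the highest of the 114 per kb (63.5, above 98.2% of all peaks). This peak had 123 and 104 in old and 136 and 170 in young MSCs (-0.43 ± 0.17, adjusted p = 0.220 in limma). The promoter peak of Hapln1 had 31.2 and 43.7 in old and 49.2 and 37.8 in young MSCs, and there the groups overlapped.

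Prg4, which encodes lubricin (chr1:150449412-150466165), had summed values of 388 and 314 in old and of 353 and 374 in young MSCs, with the old samples on both sides of the young ones (-0.06 ± 0.14, adjusted p = 0.921 in limma). Its promoter peak had 11.6 and 7.89 in old and 11.2 and 10.6 in young MSCs. Per kb (14.7) it was far below the peak 14.6 kb upstream (56.2), which was nearly equal in the 4 samples, with 85.2 and 81.0 in old and 85.1 and 85.9 in young MSCs.

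Pthlh, which encodes the ligand (chr6:147252101-147264183), had 1 peak, at its promoter (chr6:147260301-147264700), with values of 82.6 and 90.7 in old and of 76.2 and 80.0 in young MSCs. Both old samples lay above both young samples by a small margin (0.15 ± 0.17 as a gene, adjusted p = 0.824 in limma), and the difference was -0.14 in the values as deposited. Pth1r, the receptor (chr9:110722085-110747145), had summed values of 367 and 391 in old and of 409 and 376 in young MSCs, which overlapped (-0.05 ± 0.12, adjusted p = 0.921 in limma). Its 2 promoter peaks had 37.2 and 45.8 in old against 34.7 and 32.8 in young MSCs, and 77.5 and 72.5 in old against 81.8 and 73.5 in young MSCs. The intronic peak with the highest value per kb in the gene (26.7) had 137 and 150 in old and 169 and 153 in young MSCs. Neither old sample reached the young samples there, with a log2 difference of -0.16 ± 0.15 (adjusted p = 0.655 in limma). A peak of its upstream window at the promoter of Myl3 had 45.4 and 36.4 in old and 56.4 and 55.2 in young MSCs. The Pth1r promoter peak with 77.5 and 72.5 in old MSCs also covers the promoter of another gene. Without this peak and the Myl3 peak the log2 difference of Pth1r was 0.02, which therefore leaves out a promoter of Pth1r itself.

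**Figure D5:**
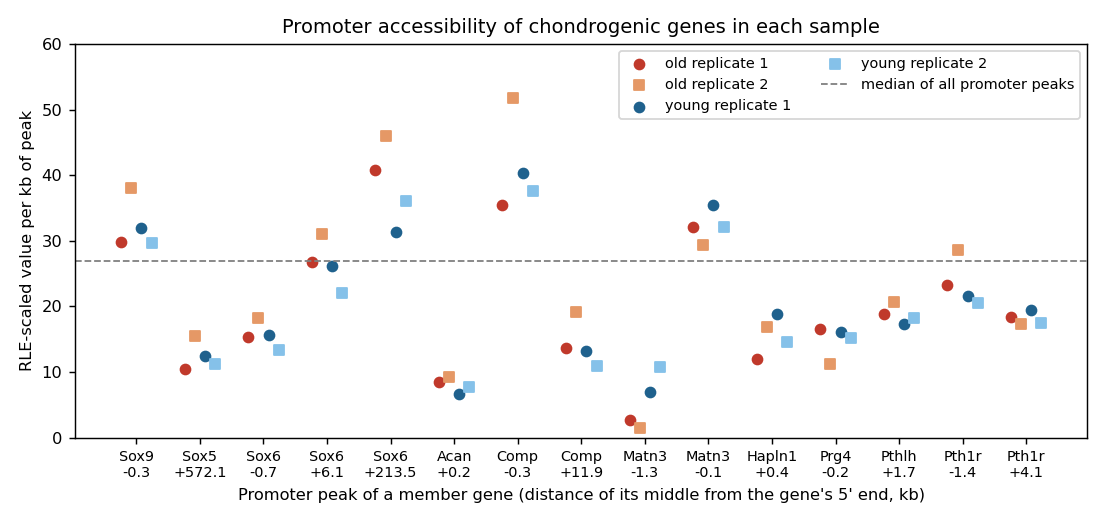
RLE-scaled value per kb of the 15 promoter peaks of chondrogenic genes (y axis), each point 1 sample, with the distance of the middle of the peak from the 5′ end of the gene on the x axis and the median of all promoter peaks as a dashed line. The peaks over the starts of Sox9, Comp and Matn3 and the Sox6 promoter peak at 214 kb lie above that median of 26.9 in the 4 samples. Among those below it in the 4 samples are the promoter peaks of Acan, Pthlh, Sox5 and Prg4. The Sox6 peak over the 5′ end, the Matn3 peak upstream of its start and the Comp peak that runs past the end of the gene also lie below it.

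The wider cartilage programme was read from 35 other genes, among them cartilage collagens, small leucine-rich proteoglycans and regulators of chondrocyte maturation. Each had at least 1 peak in its window, and 30 had a promoter peak. No promoter peak was listed at Matn1, Ucma, Snorc, Epyc or Cytl1. None of the 35 passed an adjusted p of 0.01 in limma. At an unadjusted p under 0.05, 0 were lower and 3 were higher in old MSCs (4.74% and 3.06% of all genes), and over the list 22 were higher (62.9%, against 47.4% of all genes) and 13 lower, with a median log2 difference of 0.07 against -0.01 for all genes. Col2a1, the main collagen of cartilage, had a promoter value per kb of 38.6 and 38.7 in old and of 41.4 and 36.3 in young MSCs, and its summed signal differed by 0.06.

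The central 300 bases of the chondrogenic peaks held a SOX motif in 24 of 114 peaks (21.1%, against 15.5% of all peaks). These were mainly peaks of the SOX genes themselves, where 22 of 79 held one (27.8%), against 1 of 27 at the matrix genes. AP-1 motifs were present in 23.7% of the chondrogenic peaks (21.5% of all), RUNX motifs in 26.3% (26.0%) and TEAD motifs in 15.8% (20.9%). Within the SOX genes, 18 of the 44 peaks of Sox5 (40.9%) and 3 of the 32 peaks of Sox6 (9.38%) held an AP-1 motif. The motifs were counted on both strands and separately, so that matches may overlap, and a match is a description of the sequence, not a site of binding.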

How the data were processed

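ATAC-seq values of 2 old and 2 young MSC samples were analysed. The authors deposited 1 value per sample and peak under the name RPKM, which was treated as a score, because 100% of the values of each sample fell on multiples of 1 step (tolerance 0.01), whatever the width of the peak. The submitters' processing notes name Bowtie2, Picard and mm10. For its oxygen experiments the study took peaks and values from chromstaR, and how the old and young samples were processed is not given separately in the sources used here.

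From the deposited values, log2(value + 1) was computed after division by RLE factors and tested for all 117282 peaks with limma 3.58.1 in R 4.3.3 (lmFit, eBayes with trend and robust moderation, two-sided), with Benjamini-Hochberg adjustment over all peaks and a threshold of 0.01. All log2 differences are on the log2(value + 1) scale, which understates differences of weak peaks. Gene values are sums over the peaks of a gene, fitted in the same way over 18118 protein-coding genes, whose windows can share peaks. The main test was run on the log scale because the values were read as scaled to the library total. An alternative was limma-voom on counts recovered from the steps, with the smallest step taken as 1 count. The 4 columns of the table were matched to samples by the labels, and groups by the sample titles. The fit was first tested on simulated data with known answers. At the threshold of 0.01 it recovered 100% of log2 changes of 2 but 42% of log2 changes of 1, with 1 false call among 143. With no change simulated it made 0 calls. The simulation used a fixed dispersion and placed no changes in the weakest peaks, so that it does not give the power in these data. Python 3.11.15, pandas 2.3.3, numpy 2.4.6, scipy 1.17.1 and matplotlib 3.10.9 were used for summaries and figures.

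The genes and lists were chosen with earlier results of these data known. Peaks were named by a rule: promoter peaks of the 10 genes, the peak of each gene with the highest value per kb, peaks past the threshold and the 6 peaks with the smallest unadjusted p. A few others were named after their values were seen (the upstream peaks of Sox9, Comp and Pth1r). Intervals are standard errors of limma or SDs between samples, and no filter on low values was applied, so that all 114 peaks entered the fit. At 2 of them at least 1 sample had fewer than 3 counts. The alternatives tried were the values as deposited, quantile normalization, equal total signal, pseudocounts of 0.1 or 5, leaving out the weakest peaks, other windows, a replicate block, plain moderation, a threshold of 0.05, a correction for GC content and width and leaving out each sample. A crossed replicate block was added after the data were examined. The result of 1 list of cell type markers is not reported here.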

Additional observations from a re-analysis of the deposited data

How the results depend on the processing

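Of the results on the list, the number of peaks called at an adjusted p of 0.01 and the number of genes stayed at 0 under the other alternatives that kept all 4 samples, the replicate block included (0 lower, 0 higher, 0 genes). The labels do not say whether the replicate numbers pair the samples. The correlation of deviations of same-numbered samples was -0.0993, which cannot decide this with 2 samples per group. The replicate block moved the calls over all peaks to 907 lower and 362 higher, against 36 and 30. The exception was the crossed replicate block, chosen after seeing the data, which called 1 chondrogenic peak lower and 1 higher, and 2197 and 1022 of all peaks. Leaving out 1 sample gave between 0 and 3 lower peaks, between 0 and 8 higher peaks and between 0 and 3 genes, the upper ends without old replicate 1, where a lone old sample is assumed to vary like the young pair and 6474 and 3880 of all peaks were called. Without old replicate 2 the calls over all peaks were 1175 and 502, without young replicate 1 they were 1 and 7, and without young replicate 2 and under plain moderation they were 0 and 0. The median of the 114 peaks ranged from 0.030 (without old replicate 2) to 0.25 (without old replicate 1), the peaks with both old samples below the young ones from 23 to 32 and those above from 46 to 69, where 3 samples leave more room for separation (34.5% to 40.3% and 33.4% to 40.5% of all peaks).

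In the values as deposited, the median was -0.15, the peaks below and above were 33 and 8 (43.5% and 7.56% of all peaks), and 1333 of all peaks were called lower and 52 higher. There the log2 difference turned negative at the genes Sox9 (-0.13), Sox5 (-0.15), Sox6 (-0.12), Acan (-0.049), Matn3 (-0.27) and Pthlh (-0.14), at the promoter peaks of Sox9 (-0.16), Sox5 (-0.17), Sox6 (-0.075 over the 5′ end, -0.026 at 6.15 kb), Comp (-0.15) and Pthlh (-0.14), and at the strongest peaks of Acan (-0.097) and Matn3 (-0.23). With equal total signal it turned positive at Prg4 (0.011), Pth1r (0.018), the strongest peaks of Prg4 (0.027) and Sox5 (0.049) and the Pth1r promoter peak at 4.15 kb (0.019). Quantile normalization (0.032) and limma-voom (0.0043) turned the strongest Sox5 peak. The correction for GC content and width turned the strongest peaks of Prg4 (0.050) and Sox6 (0.12) and the Prg4 promoter peak (0.024). Matn3 was -0.053 with 5 kb upstream, -0.0054 in the gene body and -0.12 as a mean of log2 values. Pth1r was 0.064 as such a mean and 0.019 without promoters of other genes, which also drops a shared promoter peak of its own. The cause was not tested.

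Leaving out 1 sample changed the sign, with ranges of -0.033 to 0.32 for Sox5, -0.040 to 0.091 for Matn3 and -0.21 to 0.10 for Prg4 as genes (lower end without old replicate 2 for Sox5 and Matn3, upper end for Prg4) and -0.11 to 0.0053 for Pth1r (without young replicates 2 and 1). Among peaks the ranges were -0.037 to 0.30 at the Sox9 promoter, -0.16 to 0.39 at the Sox5 promoter, -0.28 to 0.25 at the strongest Sox5 peak, -0.37 to 0.11 at the strongest Sox6 peak, -0.065 to 0.40 at the strongest Acan peak, -0.13 to 0.41 at the Comp promoter, -0.055 to 0.17 at the strongest Matn3 peak, -0.44 to 0.016 at the Hapln1 promoter, -0.080 to 0.0038 at the strongest Prg4 peak, -0.43 to 0.084 at the Prg4 promoter and -0.13 to 0.023 at the Pth1r promoter peak at 4.15 kb. These signs changed without old replicate 2, except at the Hapln1 promoter and the strongest Sox5 peak (without old replicate 1, the latter also without young replicate 2) and the strongest Sox6 peak (without young replicate 2). They also changed at the strongest Acan peak without young replicate 2, which gave its lower end, and at the strongest Matn3 peak and the Pth1r promoter peak without young replicate 1, which gave the upper end of the latter. Weak peaks rest on few counts, from 2 counts in the weakest sample of the 114 peaks.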
